A study of Mus musculus with 5 samples.

Results

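A set of 10 genes of ion, acid and water transport in colonocytes was followed through 5 single-cell libraries of mouse colon. The set was given by name, with Slc26a3, Car1, Car4, Aqp8 and Atp12a as absorptive genes, Cftr, Slc12a2 and Kcnq1 as secretory genes, and Car2 and Aqp3, which stand in neither set. All 10 members, of 22146 genes with a count in any library, were listed in each of the 5 libraries.

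The 4 tumor libraries were made by inDrop from colonic tumors induced with azoxymethane and dextran sodium sulfate (AOM/DSS) in mice labelled WT and treated with 5FU+Irinotecan. The early group was 2 day 1 libraries and the late group was the day 3 and the day 6 library, so that the late group joins 2 time points with 1 library each. The study used mice of a mixed background or of C57BL/6J, and which library had which is not in the labels. No untreated tumor library was analysed here, and all 4 tumor libraries shared the carcinogen and the drugs. The fifth library came from untreated WT colon by a dissociation meant to enrich fibroblasts after the crypts had been stripped. It is called the normal colon library below, and 302 of its 1095 cells (27.6%) carried columnar epithelial markers, against 263 fibroblast-like cells. Since tissue, dissociation and library cannot be told apart with 1 normal library, its values are set beside the tumor values without a test. Nothing in the labels says how many animals or tumors stand behind a library, and the labels do not settle from when the days count.

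Cells with at least 500 genes and at most 15% mitochondrial counts were kept, which left 748 and 2403 cells in the early libraries, 1419 in the day 3 and 2826 in the day 6 library. Median depth was 2903 to 3601 unique molecular identifiers (UMIs) per cell over the 5 libraries. Libraries shared 4 to 41 cell barcodes with each other. The index type of the libraries differed, being single for the first early and the day 3 library, and dual for the others, which were run on another sequencer. Pooled changes are therefore given beside those within an index type. Levels are UMI counts summed over the cells of a type in a library and scaled to 1000000 counts in all (CPM), with 95% Poisson intervals that cover counting error only. Because this chemistry counts each transcript at its 3′ end, levels of different genes were compared as counts of transcripts without a correction for length.

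The colonic surface takes up salt and water. Slc26a3 exchanges luminal chloride for bicarbonate, the carbonic anhydrases Car1 and Car2 in the cytosol and Car4 at the outer membrane supply bicarbonate and protons, Atp12a is the colonic proton-potassium pump, and Aqp8 is a water channel. Crypts secrete fluid through the chloride channel Cftr, fed by the sodium-potassium-chloride cotransporter Slc12a2 (NKCC1), while Kcnq1 is a potassium channel that keeps up the electrical driving force. Aqp3 passes water and glycerol and is known from basal keratinocytes as well as from the basolateral membrane of colonocytes. Absorptive genes are known to rise from the crypt base to the surface, where stem cell genes such as Lgr5 are low.

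Promoter sequence in the RefSeq table used here (GRCm38.p6) covered 5 of the 10 members. The 250 bases before the annotated start are shown, 5′ to 3′ on the strand of the gene, for a gene of absorption, a gene of secretion and the aquaporin of squamous cells, a choice made after their values were seen. Capitals mark the TATA box letters TATAAA, searched on both strands.
Slc26a3: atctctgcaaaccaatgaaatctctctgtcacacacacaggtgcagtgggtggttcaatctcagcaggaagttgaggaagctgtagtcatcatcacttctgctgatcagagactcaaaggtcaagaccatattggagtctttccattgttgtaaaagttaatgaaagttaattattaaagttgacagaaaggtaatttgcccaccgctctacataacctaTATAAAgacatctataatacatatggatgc
Cftr: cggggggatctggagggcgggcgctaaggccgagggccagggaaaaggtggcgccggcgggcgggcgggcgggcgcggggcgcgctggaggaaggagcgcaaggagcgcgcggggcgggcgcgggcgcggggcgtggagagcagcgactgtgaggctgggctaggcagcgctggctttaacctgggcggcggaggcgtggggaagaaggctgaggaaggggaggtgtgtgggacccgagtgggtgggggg
Aqp3: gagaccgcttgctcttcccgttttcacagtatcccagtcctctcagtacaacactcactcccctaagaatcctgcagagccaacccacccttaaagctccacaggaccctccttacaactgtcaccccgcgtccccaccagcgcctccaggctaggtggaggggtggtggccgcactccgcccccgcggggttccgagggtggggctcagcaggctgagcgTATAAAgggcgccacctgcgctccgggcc
The Slc26a3 window lies at chr12:31437969-31438218 on the plus strand, the Cftr window at chr6:18170437-18170686 on the plus strand and the Aqp3 window at chr4:41098184-41098433 on the minus strand. In GENCODE vM21 the Cftr and Aqp3 windows overlapped no annotated gene, while the Slc26a3 window lay inside the longer Slc26a3 gene model of that annotation and touched an exon of it at its end. TATAAA began 30 bases before the Slc26a3 start and 29 bases before the Aqp3 start, and the Cftr window held none. Of 32536 mouse promoter windows of this length, 12.3% held the letters. The GC content was 38.8% for Slc26a3, 76.4% for Cftr and 64.0% for Aqp3, against a median of 52.4% over all windows, and the windows held 1, 30 and 14 CpG dinucleotides. The letters CAAAGTNCA (HNF4), TTTATG (CDX) and TGANTCA (AP-1) were in none of the 3 windows on either strand and were in 1.2%, 10.8% and 6.73% of all windows. The CDX letters share TTTAT with the reverse of the TATA box.

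Cells were clustered without the members and without the other transport genes listed below, and columnar cells were named from keratins and other epithelial markers. There were 265 and 1252 columnar cells in the early, 898 and 1378 in the late tumor libraries and 302 in normal colon, and tumor values below keep this order (day 1 replicates 1 and 2, day 3, day 6). Different clusters held most of them in each library: cluster T1, led by Wif1, Nkd1 and Dkk2, held 153 of the 265 and 382 of the 1252 early cells but 23 and 16 late cells, while other day 1 replicate 2 cells were mostly in T2 and T7, day 3 cells in T5, T9 and T12, day 6 cells in T0, T11 and T14, and normal cells in S0 and S2. Genes leading T0 and T11 included the interferon-responsive Gbp2 and Ubd, and Saa1, Ido1 and Nos2 were among those of T11.

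Slc26a3 was far higher in normal columnar cells than in those of each tumor library. Its level was 52.9 CPM in day 1 replicate 1, 7.15 in day 1 replicate 2, 9.39 in day 3, 55.6 in day 6 and 715 in normal colon. The normal level was 12.9 to 100.0 times those of the 4 tumor libraries, and early and late libraries overlapped. In day 1 replicate 1, 52 of the 163 counts came from 1 cell. With every cell thinned to 1000 UMIs, 41.0% of normal columnar cells held a Slc26a3 UMI, against 2.64%, 0.319%, 0.668% and 4.17% in the tumor libraries. Without thinning the shares were 62.6% and 3.19% to 12.8%, at median depths of 5848 UMIs in normal and 2062 to 7861 in tumor columnar cells. Non-epithelial cells, which should lack the gene, gave thinned shares of 3.22% in normal colon and 0 to 1.30% in the tumor libraries, at median depths of 2261 and 2436 to 3003 UMIs. In day 3 the thinned share was 0.667% of non-epithelial cells, so that Slc26a3 of columnar cells was not distinguishable from background in that library.

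Aqp8 followed the same order at lower levels. It stood at 11.0, 4.88, 7.33 and 16.4 CPM in the 4 tumor libraries, and at 248 CPM in normal columnar cells, 15.1 to 50.8 times higher. Non-epithelial cells of the tumor libraries held 7.13, 3.14, 4.62 and 3.28 CPM, with intervals that overlapped those of columnar cells in each library but day 6, so that Aqp8 transcripts of columnar cells were not distinguishable from those of other cells at this depth in the day 1 and day 3 libraries.

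For Atp12a and Car1 day 6 stood apart from the other tumor libraries. Atp12a was 26.3 CPM in day 1 replicate 1, 28.7 in day 1 replicate 2 and 22.0 in day 3, and 397 in day 6, close to the 420 CPM of normal columnar cells. Car1 was 314, 231 and 194 CPM in the day 1 and day 3 libraries, 1089 in day 6 and 1381 in normal colon. The day 6 level of both genes was within 1.27 times of the normal level at this clustering, whereas Slc26a3 and Aqp8 of the same day 6 cells were 12.9 and 15.1 times below it. Thinned shares of columnar cells with a Car1 UMI were 14.3%, 14.8% and 13.6% in the day 1 and day 3 libraries, 52.4% in day 6 and 40.7% in normal colon. Non-epithelial cells of day 6 also held Car1, at 343 CPM and a thinned share of 31.1%, against 54.3 CPM and 5.8% in normal colon. In day 1 replicates 1 and 2 non-epithelial cells held 133 and 102 CPM, below columnar cells beyond counting error. Their thinned shares were 12.7% and 11.5%, with intervals that overlapped those of columnar cells. By thinned share, Car1 of day 1 columnar cells was thus not distinguishable from background. In day 3 non-epithelial cells held 57.0 CPM and a thinned share of 5.33%. Erythroid-like cells, which are known to use Car1 and Car2, held 52.9 and 85.4 CPM of them in day 1 replicate 2, less than the columnar cells beside them.

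Car4 had the widest range of all members in columnar cells. It was near the limit of detection on day 1, with 5 counts (1.62 CPM) in replicate 1 and 12 counts (1.05 CPM) in replicate 2, and reached 13.7 CPM in day 3, 43.5 in day 6 and 261 in normal colon. Of the 373 day 6 counts, 52 came from 1 cell. Non-epithelial cells other than endothelial cells held 9.91 CPM in day 3, on 2 counts, and 15.1 CPM in day 6, on 28 counts. Squamous-like cells of day 3 held 22.0 CPM, more than columnar cells of that library, so that the day 3 columnar level was not above the level that other cells of the library carried.

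**Figure D1:**
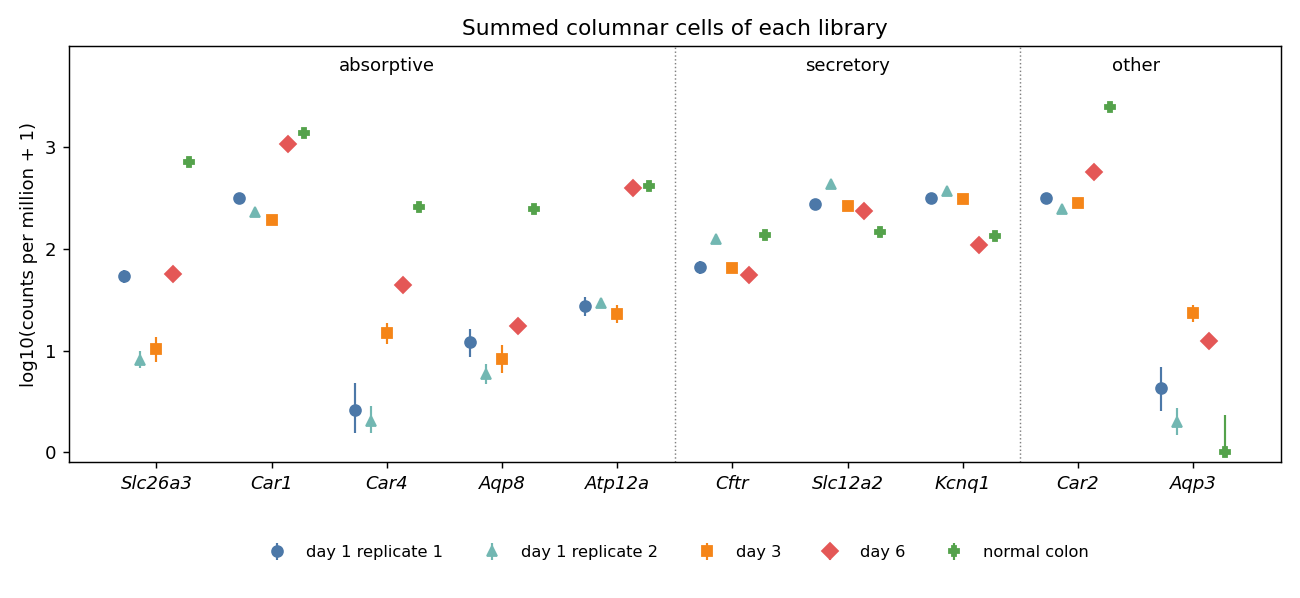
Level of each member in the summed columnar cells of each library, as log10(CPM + 1), with vertical bars for the 95% Poisson interval where it is wider than the symbol. Normal colon (green) is highest for Slc26a3, Car1, Car4, Aqp8, Atp12a and Car2, and by a small margin for Cftr. Of the absorptive genes, day 6 (red) comes close to it for Car1 and Atp12a only, and Slc12a2 is lowest in normal colon.

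Secretory genes spread over a narrower range, and normal colon was the library with the least Slc12a2. Slc12a2 was 275, 441, 263 and 237 CPM in the columnar cells of day 1 replicate 1, day 1 replicate 2, day 3 and day 6 and 145 CPM in normal colon, so that each tumor library lay 1.63 to 3.03 times above the normal one at this clustering. Kcnq1 was 319, 374 and 310.1 CPM in the day 1 and day 3 libraries, 109 in day 6 and 134 in normal colon. Kcnq1 was thus lowest in day 6, and the other 3 tumor libraries lay 2.31 to 2.78 times above normal at this clustering. Cftr was 64.9, 124, 64.6 and 54 CPM in the tumor libraries and 136 in normal colon, with day 1 replicate 2 nearest to the normal level. These comparisons with normal colon depend on how its cells were clustered. At resolution 0.5 its columnar class shrank from 302 to 193 cells, with Slc12a2 at 48.2, Kcnq1 at 49.4 and Cftr at 63.4 CPM. Kcnq1 was then lower in normal colon than in day 6 (107 CPM), and the normal Cftr level was near those of day 1 replicate 1, day 3 and day 6 (65.3, 63.7 and 53.2 CPM) and below that of day 1 replicate 2 (131 CPM). Car1 and Atp12a of normal colon were then 2252 and 629 CPM, against 1070.5 and 388 in day 6. These normal levels were near those of cluster S0 alone (191 cells), with Slc12a2 at 48.6, Kcnq1 at 49.2 and Cftr at 64.1 CPM. Cluster S2 (111 cells), described below, was higher for each of these secretory genes. Thinned shares of columnar cells with a Cftr UMI were 2.57% to 10.6% in the tumor libraries and 7.80% in normal colon. At resolution 1, 26 cells of normal colon were left unnamed and are outside its columnar values. They held 207 CPM of Cftr, 326 of Slc12a2 and 355 of Kcnq1, above the columnar cells of that library for each gene.

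Among other epithelial cells Slc12a2 stood out in goblet-like cells, the mucus-secreting cells. Its level there was 483 CPM in day 1 replicate 1, 663 in day 1 replicate 2, 793 in day 6 and 707 in normal colon, above columnar cells in each of the 4 libraries that held goblet-like cells. Its thinned shares were 35.0%, 40.8%, 55.8% and 47.8%. Goblet-like cells held less Cftr (13.1, 21.8, 21.0 and 82.4 CPM) and Kcnq1 (71.8, 70.4, 75.7 and 93.4 CPM), in each case below the columnar cells of the same library at this clustering. In normal colon this order could not be checked at resolution 0.5, since goblet-like levels were not computed there. Its columnar cells at that setting held 63.4 CPM of Cftr and 49.4 of Kcnq1, while the goblet-like levels above are from resolution 1. In the normal colon library pericyte-like cells reached 506 CPM of Slc12a2, on 35 counts, and day 1 replicate 2 held 413 CPM in blood endothelial-like and 387 CPM in fibroblast-like cells. Kcnq1 in these 3 sums was 57.8, 215 and 130 CPM, and Cftr was 43.4 (3 counts), 3.36 and 8.42 CPM.

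The sum of the 5 absorptive genes over the sum of the 3 secretory genes gave the balance of each cell type. In columnar cells the log2 ratio was -0.70 and -1.78 in the early libraries, -1.37 in day 3, 2.00 in day 6 and 2.86 in normal colon. Secretory transcripts outnumbered absorptive ones in the first 3 of these libraries, and absorptive transcripts outnumbered secretory ones in the other two. Car1 made up 77.4%, 84.7%, 78.7%, 68.0% and 45.7% of the absorptive sum, in the same order. In the day 1 libraries Car1 of columnar cells was above that of non-epithelial cells in CPM, but not distinguishable from it by thinned share. Without Car1 the ratio was -2.84, -4.49, -3.60, 0.36 and 1.98, which kept day 6 and normal colon above the other libraries. The columnar cells of day 6 were not alike in this balance. Cluster T14, with 223 of its 245 cells from day 6, had a ratio of -0.96, on the secretory side. The ratio of goblet-like cells was below 0 in all 4 libraries that held them (-1.86, -3.34, -1.64 and -1.53). Paneth-like cells had ratios of -0.11, -1.83 and -1.81 in the day 1 and day 3 libraries, the first of these above that of columnar cells. Enteroendocrine-like cells had -1.72 and -2.15 in the day 1 libraries and 1.36 in day 6. Non-epithelial cells of the tumor libraries carried ratios of -0.57, -1.72, -2.17 and 1.90, nearest to those of the columnar cells in the day 1 and day 6 libraries and lower in day 3, at lower sums (154, 117, 102 and 516 CPM of absorptive genes against 406, 273, 246 and 1601). Squamous-like cells of day 6 had a ratio of 0.59, and their 227 CPM of Car1 was below the 343 CPM of non-epithelial cells. The part of free RNA in the levels of cells other than columnar cells was not tested.

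**Figure D2:**
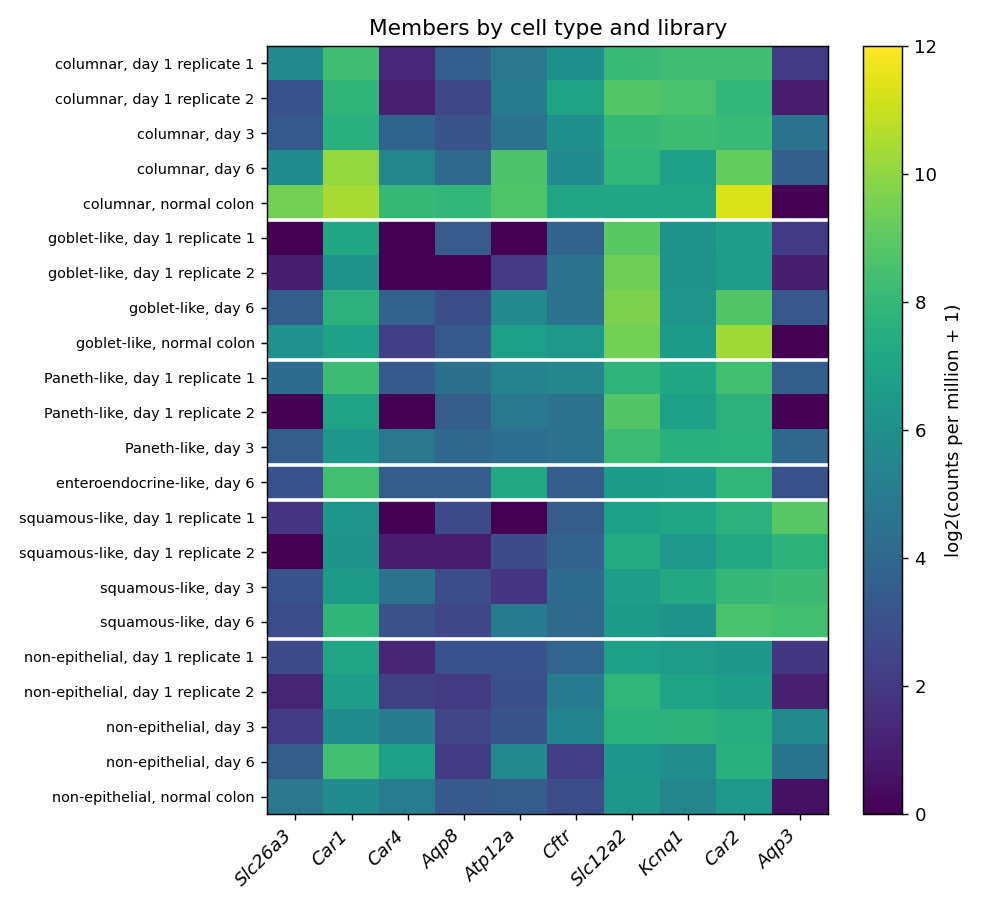
Level of each member as log2(CPM + 1) by colour, in sums of at least 20 cells, with rows for cell type and library and columns for genes. Columnar cells of normal colon are brightest for the absorptive genes and Car2, goblet-like cells are bright for Slc12a2, and Aqp3 is bright in squamous-like rows and dark in columnar ones.

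Within the columnar cells the clusters differed in their balance of absorptive and secretory genes. Ordered by the ratio, the 11 columnar clusters ran from T1, at a log2 ratio of -3.32, to S0 of normal colon, at 4.94. T1 held the most Lgr5, at 524 CPM, and had 58.5 CPM of Car1 and 2.12 of Slc26a3 against 356 of Kcnq1 and 276 of Slc12a2. At the other end of the tumor clusters, T11 of day 6 held 4.53 CPM of Lgr5, 1870 of Car1 and 814 of Atp12a against 22.1 of Kcnq1 and 118 of Slc12a2. T14, also mostly of day 6, held 315 CPM of Car1 and 35.2 of Atp12a against 206 of Kcnq1 and 434 of Slc12a2. Across the 9 columnar clusters of the tumor libraries the correlation of log2(CPM + 1) with the summed level of 6 stem cell genes (Lgr5, Axin2, Ascl2, Smoc2, Lrig1 and Prom1) was -0.86 for Slc26a3, -0.81 for Car1, -0.77 for Car4, -0.62 for Aqp8, -0.82 for Atp12a and -0.90 for Car2, and 0.78 for Kcnq1, 0.49 for Slc12a2 and 0.37 for Cftr. These are descriptions over clusters that share libraries and depth, and most clusters came from 1 library.

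The 2 columnar clusters of normal colon lay on both sides of equal sums. S2, with 111 cells and Foxq1, Cldn2 and Kcne3 among its leading genes, had a ratio of -1.60 with 237 CPM of Cftr, 283 of Slc12a2, 255 of Kcnq1, 77.8 of Car1 and 30.1 of Slc26a3. S0, with 191 cells, held 2298 CPM of Car1, 1197 of Slc26a3, 632 of Atp12a, 435 of Car4 and 412 of Aqp8 beside 64.1 of Cftr and 48.6 of Slc12a2. T11, the tumor cluster closest to S0 in ratio (4.24), was above S0 for Atp12a and at 1870 CPM for Car1, but held 84.4 CPM of Slc26a3, 86.9 of Car4 and 34.0 of Aqp8. No tumor cluster exceeded 84.4 CPM of Slc26a3 or 34.0 CPM of Aqp8. Krt20, a keratin of surface cells, was 2471 CPM in T11 and 571 in S0, so that T11 was above S0 for Krt20 and below it for Slc26a3.

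**Figure D3:**
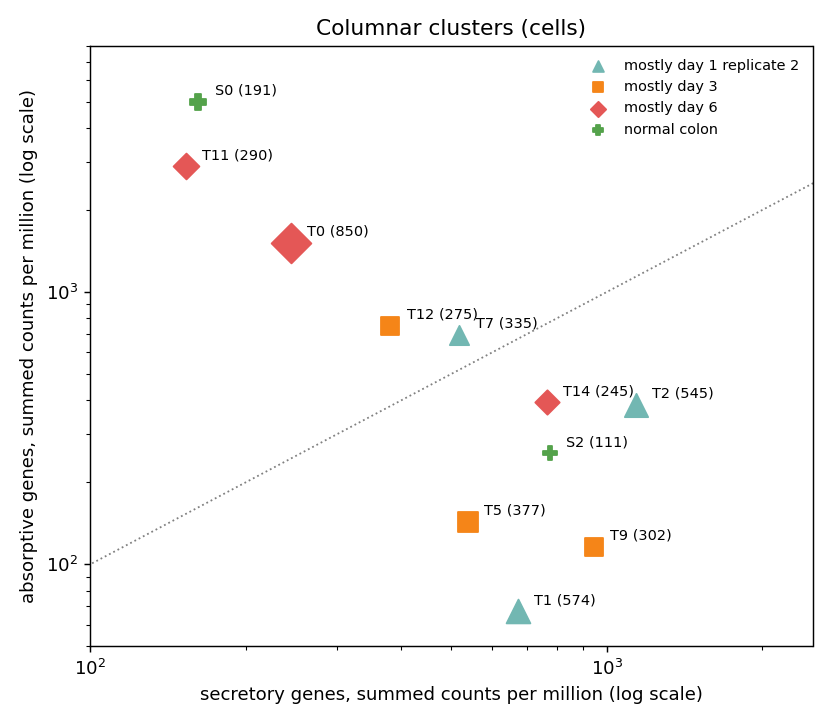
Each point is 1 columnar cluster, with the summed CPM of the 3 secretory genes on the x axis and of the 5 absorptive genes on the y axis, both on log scales. Symbols show the library that holds most of the cluster, symbol size and the number in brackets show its cells, and the dotted line marks equal sums. Clusters run from T1 at the lower right to T11 and S0 at the upper left, with day 6 clusters T0 and T11 above all other tumor clusters. Day 6 cluster T14 lies below the dotted line.

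Car2 was high in normal columnar cells at both places in this order. It was 317, 244, 283 and 568 CPM in the tumor libraries and 2521 in normal colon, 4.44 to 10.3 times higher. Both normal clusters were high, with 2125 CPM in S2 and 2800.5 in S0, while the 9 tumor clusters lay between 124 in T1 and 675 in T14. The tumor and normal ranges of clusters did not overlap, unlike those of the 5 absorptive and the 3 secretory genes. Normal goblet-like cells also held 1231 CPM of Car2, against 104, 99.1 and 431 in those of the tumor libraries. Thinned shares of columnar cells with a Car2 UMI were 18.1% to 35.6% in the tumor libraries and 85.4% in normal colon, where non-epithelial cells stood at 8.70%. Car1 and Car2 lie near each other on chromosome 3 (chr3:14766216-14808368 and chr3:14886273-14900770, GRCm38), but in S2 they stood at 77.8 and 2125 CPM.

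Aqp3 belonged to squamous-like cells, a population with Krt5 and Trp63 that numbered 54, 189, 279 and 730 cells in the 4 tumor libraries. Its level there was 466 CPM in day 1 replicate 1, 216 in day 1 replicate 2, 290.2 in day 3 and 331 in day 6, with early and late libraries overlapping. Columnar cells held 3.24, 0.959, 22.4 and 11.5 CPM. Non-epithelial cells held 2.85, 1.05, 49.3 and 24.4 CPM, so that the columnar level was not above theirs beyond counting error in any tumor library. In day 3, 18 of the 32 non-epithelial counts came from 1 fibroblast-like cell, and without fibroblast-like cells the level was 18.5 CPM. Columnar cluster T5, with 368 of its 377 cells from day 3, held 39.5 CPM. The normal colon library held 0 Aqp3 counts in 302 columnar cells, which allows a level of up to 1.10 CPM at 3 counts, and 1 count in all. Squamous clusters differed among themselves, from 97.4 CPM in T22 and 111 in T6 to 562 in T10.

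Car2 stood at 207, 152, 252 and 372 CPM in squamous-like cells, below columnar cells of the same library in each case, and above the 79.9, 106, 179 and 194 CPM of non-epithelial cells in every tumor library. Single non-epithelial types reached as much, with 159 CPM in neutrophil-like cells of day 1 replicate 2 and 267 in fibroblast-like cells of day 3. Slc12a2 (113, 164, 102 and 93.3 CPM) and Kcnq1 (132, 82.0, 149 and 72 CPM) were below columnar cells of the same library in each case. Slc26a3 and Aqp8 were at most 7.04 CPM in squamous-like cells of any library.

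Outside the epithelium Car4 was found in vessels, where the enzyme is known from capillary walls. Blood endothelial-like cells of normal colon held 290.2 CPM (52 counts, 48 cells), against 7.52, 0, 18.0 and 36.6 CPM in those of the tumor libraries, where the 0 counts of day 1 replicate 2 allow up to 10.1 CPM. These tumor values rest on 1, 0, 6 and 2 counts in 12, 61, 59 and 14 cells. In lymphatic endothelial-like cells the order was another one. They held 39.3 CPM in day 1 replicate 2 (9 counts, 37 cells), 96.1 in day 3 (11 counts, 27 cells), 902 in day 6 (198 counts, 82 cells) and 18.0 in normal colon (1 count, 21 cells). The day 6 level was the highest of Car4 in any cell type and library with at least 20 cells, and a thinned share of 55.6% of its cells held a UMI, against 8.11%, 11.1% and 0 of the others. No single cell held more than 8 of the 198 counts. The 63 day 6 cells with a Car4 UMI carried the lymphatic markers Lyve1, Ccl21a and Mmrn1 at 3717, 14362 and 3057 CPM and, of the blood endothelial list, Plvap and Flt1 at 28.2 and 16.9, Cdh5 at 158, Emcn at 310.3, Egfl7 at 666, Kdr at 688 and Pecam1 at 812 CPM. The 14 blood endothelial-like cells of day 6 held 457 CPM of Kdr, 805 of Plvap and 695 of Flt1. With 1 library at day 6 this difference has no replicate, and no test was run. Lymphatic endothelial-like cells supplied 198 of the 228 Car4 counts of all day 6 non-epithelial cells.

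**Figure D4:**
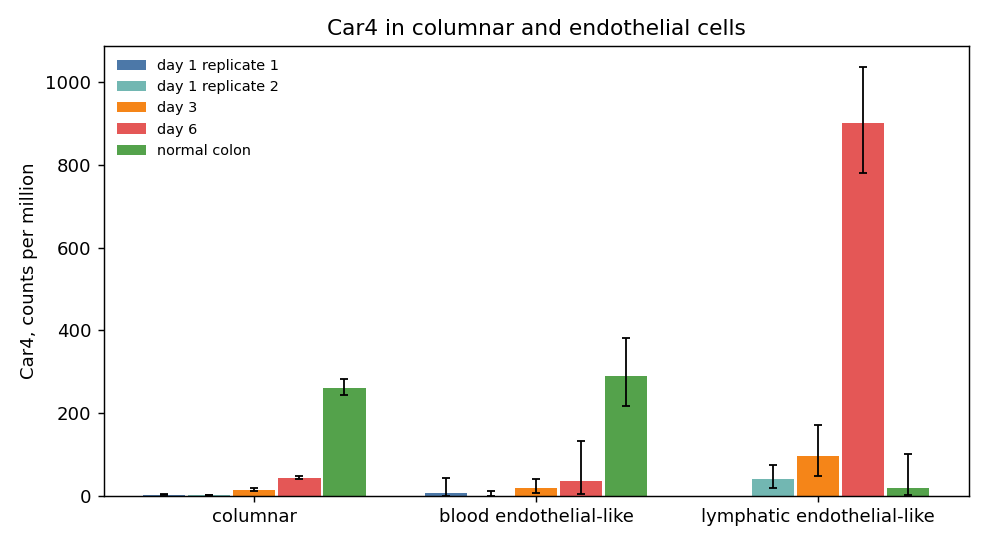
Car4 in CPM on a linear axis from 0, in columnar, blood endothelial-like and lymphatic endothelial-like cells of each library with at least 10 cells of the type, with 95% Poisson intervals as bars. Lymphatic endothelial-like cells of day 6 stand at 902 CPM, and normal colon is highest in the columnar and blood endothelial-like cells.

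Late and early libraries were then compared, to ask whether the members changed in the columnar cells of tumors between these times after treatment. Counts summed per library were fitted with the quasi-likelihood test of edgeR over 13528 genes, with 2 libraries against 2 and p-values adjusted by the Benjamini-Hochberg method over all of them. None of the 13528 genes passed an adjusted p of 0.05 by edgeR (0%), with 2253 (16.7%, of which 8.57% higher and 8.09% lower in late libraries) at an unadjusted p under 0.05. DESeq2 called 659 (4.87%) and edgeR with the index type as a block called 414 (3.06%). None of the 10 members passed, and 3 of 10, Car4, Aqp3 and Atp12a, had an unadjusted p under 0.05. Car4, Aqp3 and Car2 were higher in both late than in both early libraries after normalisation between libraries, 3 of 10 beside 24% of all genes tested, and no member was lower in both, beside 26.4%. In plain CPM the day 3 level of Car2 lay between those of the early libraries, so that its separation depends on that normalisation. Within both index types 4 of 10 members were higher in the late library, beside 34.3% of all genes, and none were lower in both, beside 35.2%, while 6 went opposite ways. The median log2 change was 1.05 over the members and 0.02 over all genes.

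Of the absorptive genes, Car4 differed by 4.95 ± 0.80 on the log2 scale (late minus early, with its standard error, n = 2 and 2 libraries, adjusted p = 0.171 by edgeR). Its normalised levels were 1.43 and 0.895 CPM early and 15.2 and 52.4 late, and the difference was 2.74 within the single index and 4.82 within the dual index libraries. DESeq2 gave an adjusted p of 2.15e-07 for it and edgeR with the index type as a block 0.0214. The day 3 level behind these calls was below that of the squamous-like cells of day 3. Atp12a differed by 3.39 ± 1.23 (adjusted p = 0.259 by edgeR, 0.0114 by DESeq2), but by 0.07 within the single index and 4.23 within the dual index libraries, and by 0.03 without the day 6 library. Car1 differed by 1.68 ± 0.83 (adjusted p = 0.361 by edgeR), by -0.37 and 2.72 within the index types, and by -0.14 without day 6. For Slc26a3 the difference was 0.59 ± 1.11 and turned to -1.28 without day 6 and to -0.27 without day 1 replicate 2. For Aqp8 it was 1.06 ± 0.66, with -0.24 within the single index and 2.01 within the dual index libraries. Day 3 was thus not above day 1 replicate 1 for Car1, Slc26a3 and Aqp8, and the positive differences of Atp12a, Car1 and Slc26a3 came with the day 6 library.

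Secretory genes had small differences with errors as large. Cftr differed by -0.27 ± 0.41, Slc12a2 by -0.11 ± 0.39 and Kcnq1 by -0.34 ± 0.52 (adjusted p of 0.768, 0.913 and 0.765 by edgeR), each upward within the single index and downward within the dual index libraries. Kcnq1 fell by 1.27 on the log2 scale from day 1 replicate 2 to day 6, as a value without a test. Car2 differed by 1.03 ± 0.50 and Aqp3 by 3.57 ± 0.75 (adjusted p of 0.354 and 0.196 by edgeR). The Aqp3 difference passed with the index type as a block (adjusted p = 0.0239 by edgeR) and by DESeq2 (0.000651). The columnar levels behind it were not above those of non-epithelial cells beyond counting error. Squamous-like cells made up 7.22% and 7.87% of early and 19.7% and 25.8% of late cells. The part of free RNA in the Aqp3 difference was not tested.

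Cluster T1 bore on these values. Without it, an alternative chosen after the data were seen, Car1 differed by 0.58, Car2 by 0.28, Slc26a3 by -0.83 and Cftr by -1.04, and Car4 and Aqp3 by 4.26 and 3.50, and 0 genes passed by edgeR, with 704 at an unadjusted p under 0.05. Composition of the columnar sums and levels per cell were not told apart.

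In squamous-like cells 6 of the 10 members passed the filter on low counts, while Slc26a3, Car4, Aqp8 and Atp12a did not. None of 9752 genes passed edgeR (0%), with 397 (4.07%, of which 2.79% higher and 1.28% lower in late libraries) at an unadjusted p under 0.05. DESeq2 called 21 (0.215%) and the fit with the index type as a block called 14 (0.144%). Of the members, Car1 alone had an unadjusted p under 0.05. The aquaporin of these cells, Aqp3, differed by 0.04 ± 0.55 between late and early libraries. Car1 (1.26), Car2 (0.95) and Cftr (0.66) were higher in both late than in both early libraries, 3 of 6 beside 16.7% of all genes tested, and none of the 6 was lower in both, beside 15.2%. The same 3 were higher within both index types, beside 28.1% of all genes, and none was lower within both, beside 25.7%. The adjusted p of each of the 6 was 0.999 by edgeR. Squamous-like Car1 was below the non-epithelial cells of the same library in 3 of 4 libraries (133, 102, 57.0 and 343 CPM in the latter), as was Cftr (14.3, 28.9, 41.6 and 3.7 CPM), and the part of free RNA in these differences was not tested.

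Further transport genes were taken as 5 lists, of which 37 of 41 genes were tested in columnar cells and none passed. Of the 37, 20 (54.1%) were higher in both late libraries and 3 were lower in both, with a median log2 change of 0.66 and 24% of all genes higher in both. These counts are after normalisation between libraries, and in the plain CPM below the day 3 level of Nr3c2, Slc6a14 and Guca2a did not exceed both early levels. Sodium absorption genes were higher in 8 of 12. Nr3c2, the mineralocorticoid receptor, was 137, 178, 151 and 465 CPM in the tumor libraries and 345 in normal colon. Slc6a14, an amino acid transporter, was 59.0, 55.8, 54.7 and 228 CPM, with 321 in normal colon. The apical sodium-proton exchanger Slc9a3, named here after its values were seen, was lower in both late libraries, with 35.0, 39.0, 20.8 and 2.10 CPM, and was 4.38 in normal columnar cells, though its log2 difference of -1.36 turned to 0.80 without T1. The monocarboxylate transporter Slc5a8, also chosen afterwards, was 16.9, 15.3, 29.1 and 160 CPM, and 243 in normal colon. Day 6 was the tumor library closest to normal colon for Nr3c2, Slc6a14 and Slc5a8, as it was for Car1 and Atp12a.

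Anion and bicarbonate exchange genes were higher in both late libraries in 4 of 8. Slc26a2, the sulfate transporter, was, like Slc26a3, highest in normal columnar cells, with 262, 208, 287 and 274 CPM in the tumor libraries and 2586 in normal colon. In guanylin signalling 3 of 4 genes were higher. The receptor Gucy2c was 113, 103, 290.0 and 154 CPM in the tumor libraries and 206 in normal colon, and its ligand Guca2a was 78.8, 103, 93.7 and 176 CPM against 881. Of 10 genes of chloride secretion and potassium channels 4 were higher. The water channel Aqp4, highest of the other aquaporins, was 59.3, 61.2, 66.2 and 191 CPM and 391 in normal colon, and 1 of the 3 tested aquaporins was higher in both late libraries.

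The genes closest to a member in level across 45 sums of library and cell type, among 9241 genes, are given as a description, since sums of a library share its depth and free RNA. For Slc26a3 they were Hao2 (r = 0.88), Tgm3 (0.85), Cyp2c55 (0.80), Sycn and Abat. For Aqp3 they were Sox15 (0.93), Trp63 (0.91), Lypd3, Duoxa1 and Calcb, of which Trp63 and Lypd3 also named the squamous clusters. For Car2 they were Maoa (0.85), Cox5b (0.81), Tmem30b (0.81), Aqp4 and Slc25a3, and for Cftr they were Ppargc1a (0.79), Vipr1 (0.75), Fut9 (0.73), Cela1 and Gss.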

How the data were processed

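The libraries were inDrop single-cell libraries with CEL-Seq amplification, 4 of AOM/DSS tumors and 1 of normal colon. The authors made UMI count tables with dropEst from reads aligned to GRCm38, and deposited raw counts per cell barcode and gene, without normalization. Strand handling of the counting is not given in the sources used here. The members and all lists were chosen with earlier results of these data known. Symbols of the normal colon table carried dots for other signs and 1172 were mapped back to those of the tumor tables.

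Cells under 500 genes or over 15% mitochondrial counts were removed. Counts were scaled to 10000 per cell, and 20 principal components of 2000 variable genes, without members and listed transport genes, were clustered at resolution 1 with leidenalg 0.10.2 in Python 3.11.15, tumor libraries together without batch correction and normal colon alone. A cluster was named from its marker lists where at least 3 markers were in 10% of cells and 2 times above other cells, and epithelial clusters left over were named columnar or squamous-like at 1.25 times above non-epithelial cells. Scrublet in scanpy 1.11.5 called 12 tumor and 7 normal cells, too few to have worked, so no doublets were removed.

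CPM were computed from the deposited counts summed per library and type, with at least 10 cells. Shares of cells used cells thinned to 1000 UMIs and left out shallower ones, which kept 1247 of 1378 columnar cells in day 6, 295 of 302 in normal colon and all in the other libraries. EdgeR 4.0.16 (TMM, filterByExpr, quasi-likelihood) in R 4.3.3 compared 2 late with 2 early libraries, the least number for any spread. Its p-values set the difference between groups against the spread within groups. That spread includes index type in both groups and day in the late group. An exact permutation test of 2 against 2 cannot go below 0.333 and was not used. In simulated columnar sums (13583 genes, dispersion 0.05, log2 changes of 2) 185 of the 199 altered genes and 1 other were found by edgeR, and 161 and 4 by DESeq2 1.42.0. In simulated squamous-like sums (9725 genes) these were 178 and 9 of 198 for edgeR, and 131 and 3 for DESeq2. The simulation used the same dispersion for all genes and no difference of index type or day within a group. Its recovery therefore does not give the power of the tests in these libraries. Total counts were 5132360 to 16904947 UMIs per library. Named transport genes are from the most abundant of each list in tumor columnar cells. Genes like a member are the 5 highest Pearson correlations of log2(CPM + 10), over sums of at least 20 cells and genes at 50 CPM or more in at least 2 sums.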

Additional observations from a re-analysis of the deposited data

How the results depend on the processing

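The late against early count of genes called in columnar cells was 0 and stayed 0 with DESeq2 size factors in edgeR, with all non-squamous epithelial cells, at both other clustering resolutions, without the top 6% of cells by Scrublet score and without cluster T1. It was 659 with the DESeq2 Wald test, 1161 without the filter on low counts, 414 with the index type as a block, and 2 to 1682 without 1 library (8 and 2 without day 1 replicate 1 and 2, 1682 without day 3 and 609 without day 6). In squamous-like cells it was 0, and 21, 97 and 14 under the first 3 of these, and 13 to 118 without 1 library (44, 13, 118 and 32 in the same order). The fit without T1 was chosen after seeing the data. Where 1 library was left out, the lone library of its group was taken to vary like the others. The causes were not tested. No paired analysis was possible because the late libraries carry no replicate numbers, other than by index type, whose block gave the 414 and 14 genes above. Of the members in columnar cells, Car4 and Aqp3 kept their direction in all 13 alternatives and passed in 5 each, Atp12a kept its direction and passed in 3, and Car1 passed in 2. Without 1 library, log2 changes ran from -1.28 to 2.69 for Slc26a3 (with -0.27 without day 1 replicate 2), -0.14 to 2.47 for Car1, -0.62 to 0.24 for Cftr, -0.37 to 0.24 for Slc12a2 and -1.19 to 0.19 for Kcnq1. In squamous-like cells they ran from -0.44 to 0.70 for Kcnq1 (with -0.05 without day 1 replicate 2) and -0.39 to 0.61 for Aqp3 (with -0.01 without day 6), and Aqp3 was -0.042 at resolution 0.5. Without cluster T1, Slc26a3 turned to -0.83, Slc26a2 to -0.24, Ano1 to -0.24 and Slc9a3 to 0.80 and without 1 library Ano1 ran from -0.015, without day 1 replicate 1, to 0.83. Of 140 levels of members in columnar, squamous-like and non-epithelial cells, 3 left their counting interval without the highest Scrublet scores, 17 at resolution 0.5, 7 at resolution 2 and 44 as means over cells. Of 59 levels of 20 CPM or more, 0, 7, 3 and 6 moved over 1.5 times. The moves at resolution 0.5 were in normal colon, where the columnar class then held 193 cells, with Slc26a3 at 1173, Aqp8 at 404, Car4 at 427, Car1 at 2252, Cftr at 63.4, Kcnq1 at 49.4 and Slc12a2 at 48.2 CPM. The moves at resolution 2 were in columnar cells of day 1. Atp12a and Car1 of replicate 2 were then 12.7 and 128 CPM, against 28.7 and 231 at resolution 1. Slc26a3 of replicate 1 was 33.2 CPM, against 52.9.

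Depth limited Car4, Aqp8, Slc26a3 and Aqp3, since the day 1 and day 3 columnar sums held 5 to 163 counts of each. With 1 library at day 3, day 6 and in normal colon, differences between those cannot be told apart from differences between libraries.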
